A study of Homo sapiens with 6 samples.

Results

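The long arm of chromosome 9 held a run of genes whose whole-gene entries were lower in RKO cells overexpressing the gap junction protein Cx43 (the OVER43 group) than in the control RKO cells (EV). A whole-gene entry is a line of the deposited isoform table that carries a gene ID in place of a transcript ID and covers the gene from end to end, introns included. The members are the entries whose locus starts between 88.1 and 135.8 Mb on chromosome 9 (hg19 positions) and whose mean over the 6 libraries was at least 0.05 FPKM (fragments per kilobase, scaled to library depth). There were 270 such entries of 52414 in the whole table, and of 12798 in the whole table above the same level. The stretch was chosen because it was lower in OVER43, so its differences between the groups are descriptions and no test is given for them. The comparison set was the 205 entries of chromosome 9 that start before 86.7 Mb, at the same level.

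RKO is a human colorectal cancer line. OVER43, of genotype Cx43 overexpression, is stably transfected with Cx43 cDNA in the vector pCDNA3.1, and EV, of genotype WT, is its control; both were grown in the same medium, with 3 libraries of poly(A) RNA each. The labels do not say what vector EV carries, whether a group is 1 clone or a pool, nor whether each library had a culture of its own, so the spread given here may be technical. The question of the design is what Cx43 overexpression does to the transcripts of these cells.

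Gene transcription first yields a precursor RNA that holds introns, which splicing removes. Poly(A) libraries are mostly mature RNA, with a small share of reads from introns, and these follow transcription more closely than mature RNA does, because unspliced RNA is short-lived. A read from genomic DNA or from an exon can fall on a whole-gene entry too, and its part was not tested. Chromosome 9q carries genes of many unrelated functions, among them the TGF-β receptor TGFBR1, the tumour suppressors PTCH1 and TSC1, the kinase ABL1 and the chaperone HSPA5, so its members share an address and not a pathway.

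The promoters of 4 members are shown, since these members mark the ends of the run and its extremes: AGTPBP1 and TSC1 are the first and last members by position, and ST6GALNAC4 and PBX3 lay far below and above zero at a high level. The sequences are RefSeq's on GRCh38.p14, a build other than that of the loci, from 250 bases before to 50 after the annotated start, and capitals mark the GC box letters GGGCGG on either strand.
AGTPBP1 (chr9:85741980-85742279, minus strand): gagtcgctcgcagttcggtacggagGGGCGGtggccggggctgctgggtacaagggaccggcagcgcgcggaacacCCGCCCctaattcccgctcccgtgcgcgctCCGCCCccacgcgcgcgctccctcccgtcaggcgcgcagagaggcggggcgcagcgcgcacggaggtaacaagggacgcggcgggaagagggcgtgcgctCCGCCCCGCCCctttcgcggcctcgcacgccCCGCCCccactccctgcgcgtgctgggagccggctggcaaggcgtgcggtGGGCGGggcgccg
TSC1 (chr9:132944567-132944866, minus strand): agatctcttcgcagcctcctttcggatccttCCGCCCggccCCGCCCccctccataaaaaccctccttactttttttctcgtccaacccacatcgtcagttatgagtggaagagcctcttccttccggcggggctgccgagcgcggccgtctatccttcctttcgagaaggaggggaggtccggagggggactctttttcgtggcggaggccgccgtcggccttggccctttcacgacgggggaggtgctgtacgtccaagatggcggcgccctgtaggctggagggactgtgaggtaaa
ST6GALNAC4 (chr9:127916992-127917291, minus strand): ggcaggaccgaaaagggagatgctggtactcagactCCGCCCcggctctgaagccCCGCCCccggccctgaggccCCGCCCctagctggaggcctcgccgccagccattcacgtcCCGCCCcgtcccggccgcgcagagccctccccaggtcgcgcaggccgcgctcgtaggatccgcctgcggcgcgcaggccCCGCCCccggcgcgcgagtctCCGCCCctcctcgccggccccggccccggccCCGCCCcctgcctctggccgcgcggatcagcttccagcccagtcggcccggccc
PBX3 (chr9:125747933-125748232, plus strand): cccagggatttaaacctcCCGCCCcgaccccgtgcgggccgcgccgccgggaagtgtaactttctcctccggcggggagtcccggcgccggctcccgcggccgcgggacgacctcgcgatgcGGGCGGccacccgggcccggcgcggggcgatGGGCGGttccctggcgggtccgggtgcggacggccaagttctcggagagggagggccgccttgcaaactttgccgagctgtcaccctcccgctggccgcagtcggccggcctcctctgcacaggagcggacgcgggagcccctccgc
All 4 carry GC box letters, with 7 in AGTPBP1, 2 in TSC1, 7 in ST6GALNAC4 and 3 in PBX3, counted with overlaps. A promoter was found for 200 of the 270 members, and 73.5% of them held GGGCGG on either strand, against 74.0% of 104 matched comparison genes and 44.6% of all 27305 promoters. CCAAT on either strand stood in 39.5% of member promoters, 30.8% of comparison promoters and 35.7% of all, and TATAAA on either strand in 4.5%, 7.69% and 11.95%. These shares describe letters in a window. None of these 3 motifs contains another. On GC box letters the member promoters resembled those of chromosome 9 before the run.

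GJA1, the gene of Cx43, checked the labels: its gene-level values were 23.2, 26.0 and 24.9 FPKM in OVER43 and 0.2999, 0.351 and 0.394 FPKM in EV. Low values of single-entry genes stepped by the value of 1 fragment and placed library depth at 44.9, 44.8 and 42.5 M fragments (M for mega) for OVER43, against 48.2, 39.3 and 43.0 M fragments for EV. On that scale the median member held about 298 fragments per library, with quartiles of 115 and 597. Of 7 colon epithelial markers matched, KRT18, KRT8, EPCAM and CDX2 stood above 1 FPKM, CDH1 averaged 0.258 FPKM (OVER43) and 0.231 FPKM (EV), VIL1 was under 0.1 FPKM and KRT20 was listed at 0. Summed epithelial markers ran from 198.2 to 203.1 FPKM in OVER43 and from 155.9 to 162.7 in EV, with KRT18 (148.4 against 79.4) and EPCAM (20.5 against 12.5) higher in OVER43, and KRT8 (24.6 against 58.7) and CDX2 (6.21 against 7.78) lower in mean. Fibroblast markers summed to 0.185 to 0.371 and 0.338 to 0.893 FPKM, endothelial markers to 0.252 to 0.388 and 0.0862 to 0.134 FPKM, and the leukocyte genes PTPRC and CD3E were listed at 0, while CD68, which many cell types express, read 376.2 and 412.8 FPKM.

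Members covered 47.7 Mb with 738 whole-gene entries, of which 468 lay below the level minimum and 253 of those were at 0 in all libraries. Of the 270 members, 219 were protein coding, 16 antisense, 8 long intergenic RNAs and 15 pseudogenes, and 3 had no type in GENCODE 29. Their median level was 0.197 FPKM (quartiles 0.105 and 0.384), and introns made up a median of 85.4% of a member's length. Since the level minimum used both groups, it let in 28 members whose OVER43 mean was below it and 6 whose EV mean was. Overlapping genes share reads: 150 members lay in a locus that the table gives to more than 1 gene, and the 270 members fell on 213 loci. Of the members, 19 were the only entry of their gene. In those without introns, such as DOLK, the entry reads mature RNA.

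Whole-gene signal of the run was lower in all OVER43 libraries than in all EV libraries. In bulk RNA, less of a transcript per cell and fewer cells that carry it cannot be told apart. The median over members was 0.154, 0.147 and 0.151 FPKM for OVER43, against 0.239, 0.231 and 0.239 FPKM for EV. Its level per library, as the median log2 distance to the EV mean, was -0.62, -0.57 and -0.62 in OVER43 and 0.01, -0.0023 and -0.0067 in EV. The SD over libraries was 0.03 in OVER43 (n = 3) and 0.01 in EV (n = 3), and EV lies near 0 by construction. Summed over members, whole-gene signal came to 101.5, 101.5 and 101.4 FPKM for OVER43, against 140.3, 135.3 and 132.5 FPKM for EV. Without DOLK, which alone gave about 20 FPKM, the sums were 81.3, 81.5 and 79.3 against 120.6, 117.2 and 114.9 FPKM. By median the comparison set was lower as well: OVER43 libraries read 0.150, 0.143 and 0.159 FPKM there, EV libraries 0.188, 0.183 and 0.184. Its distance to the EV mean was smaller than the run's, at -0.13, -0.11 and -0.14, and other chromosomes read -0.096, -0.095 and -0.11. The summed signal of the comparison set was higher in OVER43 by mean (176.7 against 165.3 FPKM), with the groups overlapping.

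**Figure D1:**
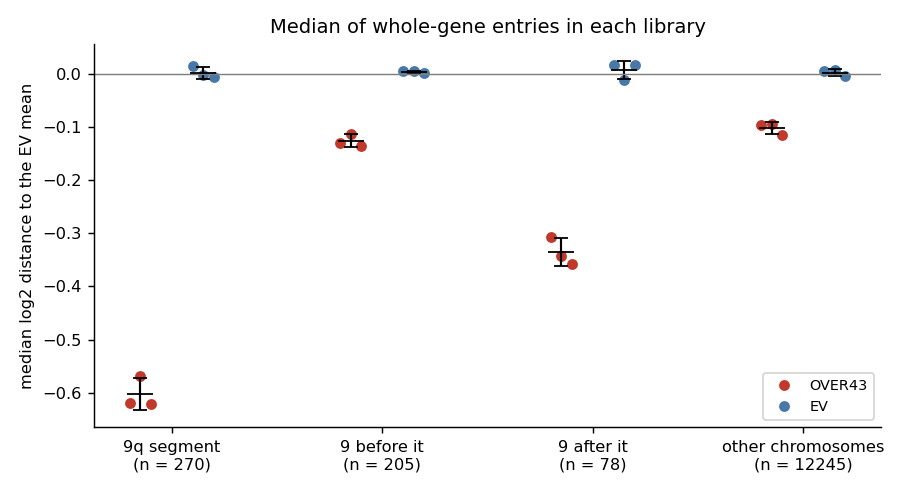
Median log2 distance of whole-gene entries to the mean of the EV libraries, in each of the 6 libraries (points), with group mean and SD (bars, n = 3), for the 9q run, the parts of chromosome 9 before and after it, and other chromosomes. The OVER43 points sit near -0.60 for the run and near -0.13 before it.

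Difference per member is given below as OVER43 minus EV on log2(FPKM + 0.01), which shrinks the difference of the weakest entries. The median member stood at -0.61, or 0.657 times its EV level, with quartiles of -0.81 and -0.34. The comparison set before the run stood at -0.13 and all 12798 entries at -0.12, so the members lay 0.48 below the comparison set (-0.48 as a difference of medians). That offset was -0.49, -0.46 and -0.49 in the 3 OVER43 libraries and 0.0091, -0.0069 and -0.0087 in the EV libraries. Of the 270 members 242 had the lower mean in OVER43 (89.6%, against 61.8% of all entries), and 28 the higher. The 3 OVER43 values lay below the 3 EV values in 197 members (73.0%; background 27.9%) and above them in 4 (1.48%; background 10.3%). Limma across all entries called 137 members lower at a Benjamini-Hochberg adjusted p under 0.05 (50.7%; background 9.85%) and 1 higher (0.370%; background 2.99%); since the run was chosen on this contrast, nothing is read from these calls. The count of lower calls was 80 without OVER43 library 0, 83 without OVER43 library 2, and 47, 49 and 62 without EV library 0, 1 and 2. The share of all entries called lower was then 3.99%, 3.79%, 2.45%, 2.38% and 3.03%, in the same order. Without OVER43 library 1, 36.3% of members were called lower, against 4.77% of all entries.

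Along the run the medians of successive stretches stayed close to each other. In steps of 5 Mb from 88.1 Mb the median was -0.74 (13 members, AGTPBP1 to SEMA4D), -0.61 (27, from SYK), -0.64 (38, to TEX10), -0.57 (11, from MSANTD3), -0.71 (13, FSD1L to TXN) and -0.67 (32, ECPAS to TNC). TRIM32, a ubiquitin ligase, was alone in its step at -0.79, and the next steps read -0.63 (37, CDK5RAP2 to GAPVD1), -0.48 (78, MAPKAP1 to GPR107) and -0.53 (20, FUBP3 to TSC1). All steps lay between -0.79 and -0.48, and in each step more members were lower than higher. Over fixed windows of 5 Mb with at least 10 entries, the 8 windows inside the run had medians from -0.74 to -0.48, and of 394 other windows in the genome 4 had a median as low as -0.48 (median of all others -0.12).

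**Figure D2:**
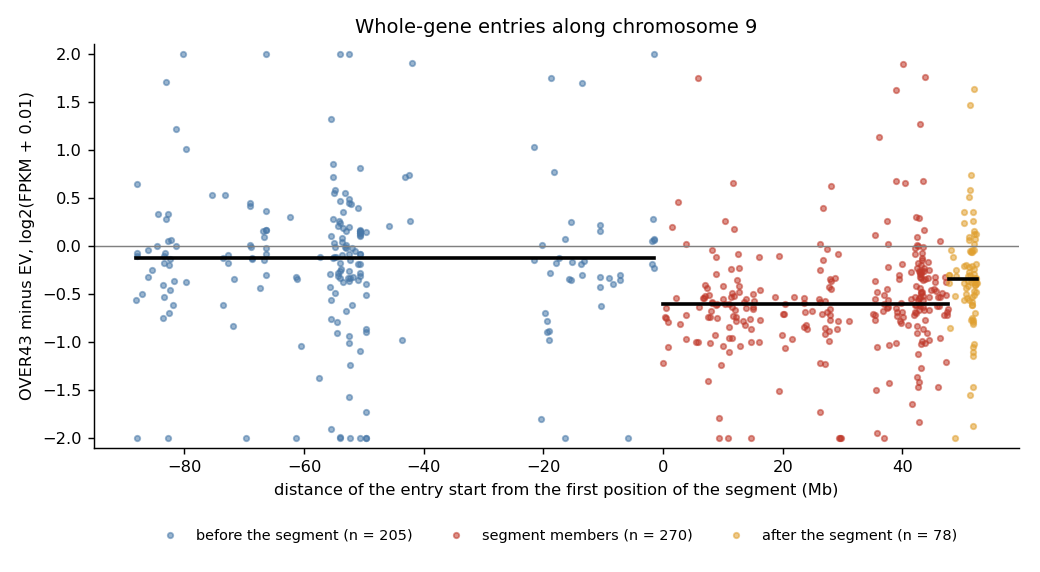
OVER43 minus EV on log2(FPKM + 0.01) for each whole-gene entry of chromosome 9 (points) against the distance of its start from the first position of the run, with the median of each part (black bars: -0.13 before, -0.61 within, -0.34 after). Values beyond 2 in either direction (24 entries) are drawn at 2 or -2.

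At the proximal end, RMI1 and AGTPBP1 are the nearest entries on either side of the edge, which the choice of the run set on this contrast. Between 86.7 and 88.1 Mb lay 4 entries, none of them at the level minimum. Just outside it, RMI1, a subunit of the BLM dissolvasome, read 0.275, 0.323 and 0.308 FPKM in OVER43 and 0.278, 0.298 and 0.2801 FPKM in EV (0.08, SE 0.07), and the RNA-binding protein gene HNRNPK stood at 0.06 (SE 0.13). HNRNPK-AS1, which overlaps HNRNPK and is uncertain because the counting is not stated to use strand, stood at 2.21 (SE 1.42). Just inside it, AGTPBP1, which encodes a tubulin deglutamylase (88161455 to 88356944), read 0.0244, 0.0272 and 0.0272 FPKM in OVER43 and 0.0748, 0.0724 and 0.0751 FPKM in EV (-1.21, SE 0.04). AGTPBP1 and ENSG00000165121 reached the level minimum through EV alone. The next members were the pseudogene ENSG00000165121 at -0.74 (SE 0.21) and NAA35, an N-terminal acetyltransferase subunit, at -0.75 (SE 0.15). Taking 20 entries on either side, the medians were -0.21 outside, from 74.5 to 86.6 Mb, and -0.68 inside, from 88.2 to 95.1 Mb.

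At the distal edge, also set by the choice of the run, the medians on either side differed less. The last members were TSC1, the hamartin gene (-0.66, SE 0.11), SPACA9 (-0.72, SE 0.46) and the sense-intronic ENSG00000224992 (-0.69, SE 0.51). SPACA9, on about 30 fragments per library, reached the level minimum through EV alone, and in it and ENSG00000224992 the groups overlapped. Beyond the last members, the RNA polymerase III factor GTF3C5 read 0.353, 0.352 and 0.341 FPKM in OVER43 and 0.423, 0.417 and 0.459 FPKM in EV (-0.30, SE 0.04), and the exchange factor RALGDS stood at -0.39 (SE 0.13). EEF1A1P5, a pseudogene that can share reads with its parent, stood at -0.30 (SE 0.05). The 78 entries of chromosome 9 after the run had a median of -0.34, between the run and the comparison set, with 62 of 78 lower. The 20 last members had a median of -0.53 and the 20 entries after them -0.31. So the low stretch did not end at its nominal distal edge; the part after it read -0.31, -0.34 and -0.36 in the OVER43 libraries.

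Of single members, the highest levels outside ribosomal protein genes show the values behind the medians. ST6GALNAC4, a sialyltransferase of ganglioside and glycoprotein synthesis (130670165 to 130679317), read 3.34, 2.81 and 3.31 FPKM in OVER43 and 7.31, 6.61 and 6.63 FPKM in EV (-1.12, SE 0.09). BBLN, the bublin coiled-coil protein gene, read 1.62, 1.52 and 1.33 FPKM in OVER43 and 2.33, 2.12 and 2.37 FPKM in EV (-0.61, SE 0.10). TOR1B, an AAA+ ATPase of the nuclear envelope and endoplasmic reticulum, read 1.66, 1.41 and 1.3979 FPKM in OVER43 and 2.24, 2.27 and 1.97 FPKM in EV (-0.53, SE 0.10). In these 3 the groups did not overlap. ALG2, a mannosyltransferase of N-glycan assembly, stood at -0.64 (SE 0.13), HDHD3 at -0.45 (SE 0.12), EXOSC2, an RNA exosome subunit, at -0.32 (SE 0.07) and COQ4, needed for coenzyme Q synthesis, at -0.27 (SE 0.07). The groups stayed apart in these as well. CFAP157, at -0.41 (SE 0.10), shares its locus with 5 other genes and is uncertain.

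Other members of high level stood nearer zero than the median of the run. RPL35, a protein of the large ribosomal subunit, read 3.15, 3.02 and 3.37 FPKM in OVER43 and 4.35, 4.09 and 3.4019 FPKM in EV (-0.30, SE 0.12). RPL12, another, read 2.11, 2.09 and 1.92 FPKM in OVER43 and 2.04, 2.24 and 2.22 FPKM in EV (-0.09, SE 0.06), and its difference was positive (0.04) after TMM scaling. CKS2, a cyclin-dependent kinase subunit, read 2.23, 2.05 and 1.96 FPKM in OVER43 and 2.1001, 1.81 and 2.26 FPKM in EV, so the groups overlapped, with a difference of 0.02 (SE 0.11) that turned to -0.07 with equal sums. DOLK, the dolichol kinase gene, has a single exon and no intron, and its entry therefore reads mature RNA: it stood at 20.2, 19.997 and 22.027 FPKM in OVER43 and 19.7, 18.1 and 17.6 FPKM in EV (0.17, SE 0.07).

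**Figure D3:**
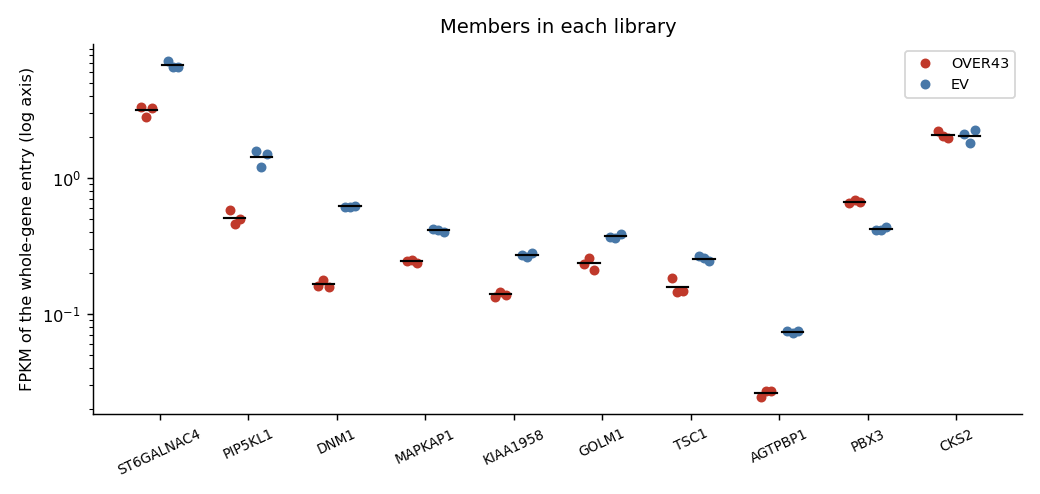
FPKM of the whole-gene entry of 10 members in each library (points, log axis; bars are group means, n = 3). In the first 8 the OVER43 points lie below the EV points, in PBX3 above them, and in CKS2 the groups overlap.

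Among members with a symbol and at least 0.2 FPKM, the lowest differences reached well below the median of the run. DNM1, RN7SL75P, EEF1DP2 and, without a symbol, ENSG00000230815 and ENSG00000228487 reached 0.2 FPKM through EV alone. For these a lower OVER43 mean FPKM was built in. RN7SL75P also reached the level minimum through EV alone. DNM1, a dynamin of vesicle scission, read 0.162, 0.178 and 0.159 FPKM in OVER43 and 0.616, 0.613 and 0.626 FPKM in EV (-1.84, SE 0.05), and its spliced isoforms averaged 2.77 FPKM in OVER43 against 7.87 FPKM in EV. PIP5KL1, a phosphoinositide kinase-like gene next to ST6GALNAC4, read 0.579, 0.457 and 0.498 FPKM in OVER43 and 1.58, 1.21 and 1.5048 FPKM in EV (-1.47, SE 0.15), with spliced isoforms at 7.87 and 24.1 FPKM. MIR600HG, a host gene of a microRNA, read 0.457, 0.695 and 0.594 FPKM in OVER43 and 1.66, 1.35 and 1.68 FPKM in EV (-1.42, SE 0.20). It is sense-intronic and shares its locus and strand with STRBP (-1.04), so it is uncertain. DNM1, PIP5KL1 and MIR600HG showed every OVER43 library below every EV library. RN7SL75P, a short pseudogene inside a longer gene's locus, had 0.919, 0.859 and 0.486 FPKM in EV and was listed at 0 in each OVER43 library, which at its length of 281 bases is only a few fragments, and EEF1DP2 (-1.40, SE 0.53) is as thin. Of the entries without a symbol, ENSG00000230815 (-2.48, on about 5 fragments, groups overlapping), ENSG00000270102 (-2.03) and ENSG00000228487 (-1.64) were as low. TNC, the matrix protein tenascin C, was the lowest of the role lists at -3.56 (SE 0.07), from 0.133, 0.119 and 0.121 FPKM in EV to 0.00106, 0.00214 and 0.000879 FPKM in OVER43, and it reached the level minimum through EV alone.

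Of the long members, MAPKAP1, a subunit of the TOR complex that phosphorylates AKT, spans 269840 bases and read 0.245, 0.248 and 0.238 FPKM in OVER43 and 0.424, 0.415 and 0.403 FPKM in EV (-0.74, SE 0.03), with about 3884 fragments per library. KIAA1958 read 0.134, 0.145 and 0.139 FPKM in OVER43 and 0.270, 0.264 and 0.280 FPKM in EV (-0.91, SE 0.04). It reached the minimum of 0.2 FPKM for naming through EV alone. GOLM1, a Golgi membrane protein gene near the proximal end and shorter, read 0.234, 0.260 and 0.212 FPKM in OVER43 and 0.368, 0.363 and 0.387 FPKM in EV (-0.65, SE 0.09). The libraries of a group differed little in these members, and no OVER43 value reached an EV value.

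PBX3 went the other way. This homeobox gene, a partner of HOX proteins, spans 220030 bases at 128509624 to 128729656, directly after MAPKAP1, and read 0.652, 0.684 and 0.666 FPKM in OVER43 and 0.413, 0.415 and 0.433 FPKM in EV (0.65, SE 0.03). It was the 1 member called higher, held about 5237 fragments per library, and its spliced isoforms averaged 69.2 FPKM (OVER43) against 39.6 FPKM (EV). POLE3, a DNA polymerase epsilon subunit and histone-fold protein, read 0.503, 0.444 and 0.608 FPKM in OVER43 and 0.364, 0.337 and 0.292 FPKM in EV (0.63, SE 0.16), while its spliced isoforms were close, at 58.1 and 59.5 FPKM. Its entry held only about 64 fragments per library, is 24.3% intron and shares its locus with another gene. ENSG00000235204, on about 5 fragments, and DOLK, at a locus of 5 genes, were the other members whose OVER43 values all lay above EV. ENSG00000235204 reached the level minimum through OVER43 alone, so a higher OVER43 mean FPKM was built in for it. TOR2A (0.30, SE 0.27), LINC02977 (0.39, SE 0.52), FAM220CP (0.66, SE 1.05) and TMSB4XP4 (1.27, SE 1.92) had positive differences within or near their error, and their groups overlapped.

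By role, the members of 9 lists had medians between -0.71 and -0.52, against -0.12 over all entries. The lists hold 9q genes sorted by function, so they divide the run and are no separate evidence for it. Beside the counts that follow, 61.8% of all entries were lower in OVER43 and 27.9% had every OVER43 value below every EV value. The counts include members that reached the level minimum through EV alone, for which a lower OVER43 mean FPKM was built in. These are AGTPBP1, CDC14B, EPB41L4B, GOLGA1, NR6A1, PHF2, SLC44A1, TNC and TRAF1. Signalling genes were lower in 11 of 11 members at the level minimum (20 listed in the run), PKN3 not so after TMM scaling, with no overlap between groups in any of the 11 (27.9% of all entries) and a median of -0.66. Named here because the title of the series concerns TGF-β, TGFBR1, the type I TGF-β receptor, read 0.0515, 0.0640 and 0.0537 FPKM in OVER43 and 0.107, 0.112 and 0.102 FPKM in EV (-0.82, SE 0.09). SYK, a cytoplasmic tyrosine kinase, stood at -0.995 (SE 0.04), ABL1 at -0.38 (SE 0.06), RAPGEF1, an exchange factor for RAP1, at -0.53 (SE 0.04), and PTCH1, the Hedgehog receptor, at -0.41 (SE 0.13). PKN3, a protein kinase C-related kinase and the highest in level, stood at -0.12 (SE 0.06), and at 6.2e-05 after TMM scaling. TRAF1, an adaptor of TNF receptors, was the lowest at -1.49, and it reached the level minimum through EV alone.

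Protein folding and turnover genes were lower in 15 of 15 (median -0.65; 12 with groups apart, against 27.9% of all entries), vesicle traffic genes in 14 of 14 (-0.66; 14 apart) and RNA processing and translation genes in 20 of 20 (-0.54; 17 apart), with RPL12 above zero after TMM scaling. HSPA5, the chaperone BiP of the endoplasmic reticulum, read 0.810, 0.690 and 0.626 FPKM in OVER43 and 0.810, 0.802 and 0.805 FPKM in EV (-0.19, SE 0.11), less low than the thiol reductase TXN (-0.67) or the proteasome subunit PSMB7 (-0.65), and TOR1A stood at -0.25 (SE 0.15) with overlapping groups. RAB14, a GTPase of endosomal recycling, read 0.258, 0.265 and 0.245 FPKM in OVER43 and 0.363, 0.368 and 0.351 FPKM in EV (-0.48, SE 0.04), and the autophagy syntaxin STX17 stood at -0.76. The nuclear pore genes NUP214 and NUP188 stood at -0.53 (SE 0.09) and -0.26 (SE 0.08), and the double-stranded RNA-binding protein STRBP at -1.04.

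Cell cycle and centrosome genes were lower in 8 of 10 (median -0.62; 8 apart, against 27.9% of all entries), the exceptions being CKS2 and CDK9, the kinase of transcription elongation, at 0.09 (SE 0.07). CDC14B, a phosphatase, and CNTRL, a centriole protein, stood at -1.11 and -1.05, CDC14B reaching the level minimum through EV alone. DNA repair genes were lower in 5 of 7 (median -0.54; 5 apart): XPA, the damage-verification protein of nucleotide excision repair, read 0.566, 0.562 and 0.510 FPKM in OVER43 and 0.710, 0.698 and 0.699 FPKM in EV (-0.36, SE 0.05), and the exceptions were POLE3 and ENDOG (0.68, SE 0.56). Transcription and chromatin genes were lower in 11 of 13 (median -0.52; 10 apart), with SET, a histone chaperone, at -0.15 (SE 0.03), GTF3C4 at -0.52 (SE 0.16), and PBX3 and the Polycomb-associated PHF19 (0.12, SE 0.11) higher. Metabolism and transport genes were lower in 15 of 18 (median -0.60; 14 apart), not in AK1 (0.01, SE 0.34), UCK1 (0.05, SE 0.18) or DOLK. Cytoskeleton, adhesion and matrix genes were lower in 8 of 8 (median -0.71; 8 apart), among them TNC, the actin-related ARPC5L (-0.34, SE 0.09) and CERCAM (-0.30, SE 0.13). Of these 8, TNC and EPB41L4B reached the level minimum through EV alone.

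**Figure D4:**
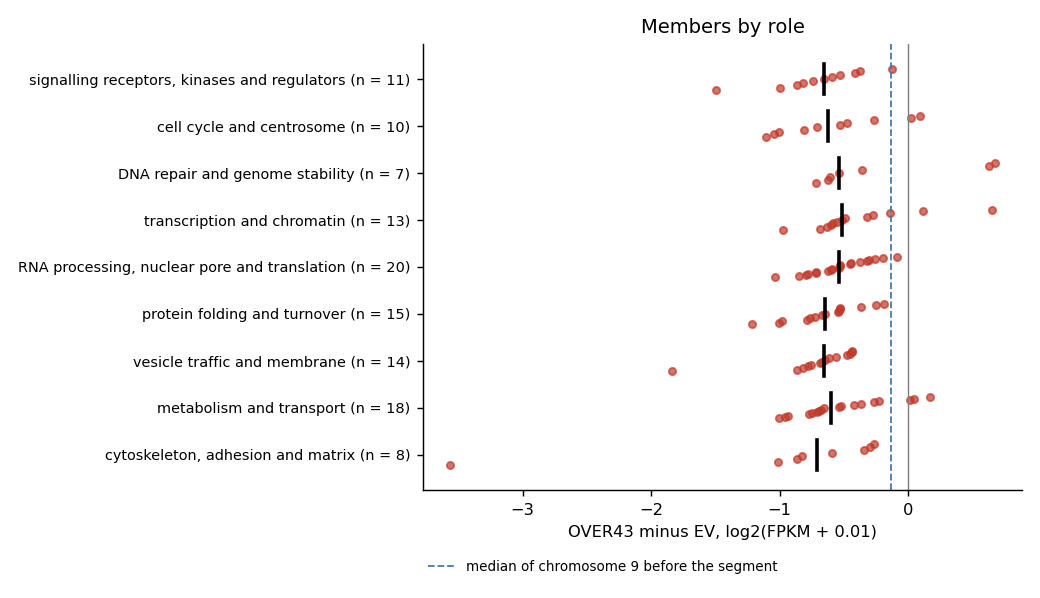
OVER43 minus EV on log2(FPKM + 0.01) for members of 9 role lists (points) with the median of each list (black bars, -0.71 to -0.52) and the median of chromosome 9 before the run (dashed line, -0.13). Nearly all points lie left of zero, and PBX3, POLE3 and ENDOG lie at 0.63 or above.

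The offset to the comparison set, which the choice of the run fixes in sign, is given here by trait as a description. It was -0.50 for members alone at their locus and -0.44 for those in shared loci, -0.49 for genes on the plus strand and -0.48 on the minus strand, and -0.48, -0.43 and -0.58 for spans under 20 kb, of 20 to 100 kb and of 100 kb or more. By level, which the choice of members also used, it was -0.54 at 0.05 to 0.1 FPKM, -0.43 at 0.1 to 0.5 FPKM and -0.50 at 0.5 FPKM or more. The members' own median did depend on introns, at -0.29 where introns made up under 50% of the gene (41 members), -0.54 at 50 to 90% (136) and -0.69 above (90), and the comparison set moved in the same order, at 0.08, -0.14 and -0.17. Pseudogenes had the smallest offset, -0.17 (15 members against 41), and the 219 protein-coding members one of -0.45. Better counted members scattered less: with 500 or more fragments the quartiles were -0.74 and -0.40, and 84 of 87 were lower, whereas under 100 fragments the quartiles were -1.17 and -0.05, and 47 of 62 were lower.

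Spliced RNA of the same genes lay lower too. For the 212 members whose spliced isoforms summed to a mean of at least 1 FPKM, the median difference of the spliced sum was -0.35 and that of the whole-gene entry -0.60. The 113 such genes before the run stood at 0.06 and -0.18, and all 8720 such genes at 0.09 and -0.12. Against the genes before the run, the members were therefore lower by -0.41 in spliced RNA and by -0.42 in the whole-gene entry. Both were lower in 190 of the 212 members, in 41 of the 113 genes before the run and in 2891 of all 8720. A lower whole-gene entry stood beside a higher spliced sum in 9, 45 and 2783 genes, in the same order. The whole-gene difference was below the spliced one by a median of -0.21 in members, -0.23 before the run and -0.21 over all genes, so whole-gene entries were lower in OVER43 than spliced RNA across the whole table and not in the run alone. Across these members, which share their 6 libraries and are not independent replicates, whole-gene and spliced differences had a Spearman correlation of 0.59, and 0.50 before the run. The whole-gene entry held a median of 0.982% of a member's summed FPKM.

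**Figure D5:**
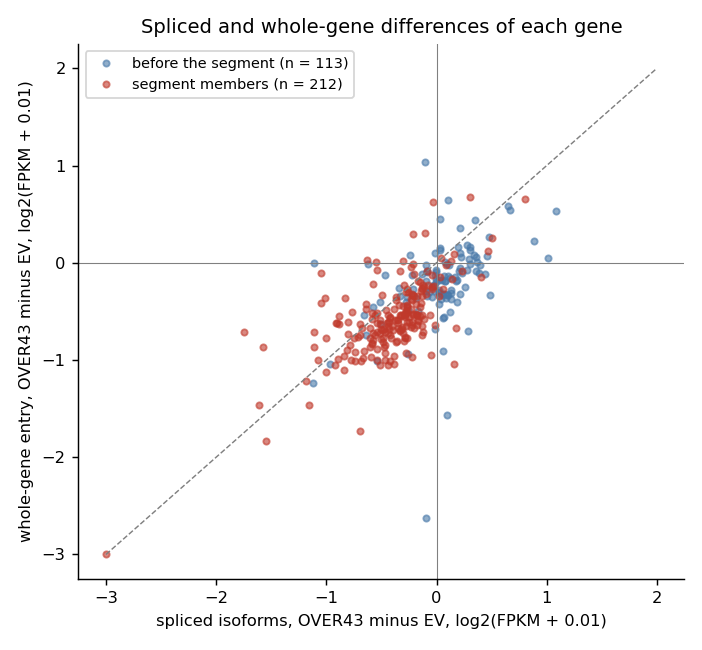
Difference of the whole-gene entry against that of the summed spliced isoforms (OVER43 minus EV, log2(FPKM + 0.01)) for each gene with at least 1 FPKM of spliced isoforms, in the run (212) and before it (113), with the line of equal differences dashed. Members sit down and left of the comparison genes, with medians of -0.60 and -0.35 against -0.18 and 0.06; 1 gene is drawn at the limit of -3.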

How the data were processed

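Poly(A) RNA of 6 libraries, 3 of EV and 3 of OVER43, was analysed from 2 deposited tables. Per the submitters' processing notes the authors used Cuffdiff (version not given) and name hg38; neither an aligner nor a strand setting is named, so both are not given in the sources used. The deposited values are FPKM per library, which Cuffdiff scales between libraries. Of 267 members with an ID in GENCODE 29 (GRCh38), 0 overlap their position there, and the loci are taken as hg19, printed with 1-based starts. The columns are numbered 0 to 2 and match no replicate number, so a column is a library of its group; 0 per-library columns were unused.

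Whole-gene entries with a mean of at least 0.05 FPKM were kept. Differences are on log2(FPKM + 0.01). Limma 3.58.1 (R 4.3.3; trend, robust; group only; two-sided; Benjamini-Hochberg) was fitted to all 12798 entries and used for counts only. Spliced RNA is the sum of a gene's other isoform entries. Gene type, strand, span and exons came from GENCODE 29 without coordinates. Tested on simulated data in this comparison (12798 entries, 100 changed per size), limma recovered 14% of changes of -0.6 and 42% of -1.2 with 3 false calls. All other group differences were removed there, whereas 1643 entries were called in the data. The adjusted cutoff therefore differs, and these shares do not give the power in the data. Depth was read from the steps of low FPKM values of single-entry genes (7 to 21 genes per library at 1 fragment, and 96.6 to 100% of low values within 0.2 of a whole number), so fragment numbers are approximate.

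The members, role lists and tests were chosen with earlier results of these data known. Named genes are GJA1 and, among members with a symbol, the 12 highest in level; the 6 lowest and 6 highest differences and the 3 longest, at 0.2 FPKM or more; the 3 first and last; and the 2 highest of each role list; with the 3 entries outside each end. The rule ranked length by locus, but gene span was used, since a locus can hold several genes; by locus TRIM32 and NOL8 would come first. Others named (list extremes and examples, TGFBR1, SYK, ABL1, PTCH1, RAPGEF1, HSPA5, NUP214, NUP188 and entries without a symbol among them) were chosen after their values were seen. Alternatives were other pseudocounts, level minimums, scalings, entry sets and comparison sets, a block by column number and leaving out each library.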

Additional observations from a re-analysis of the deposited data

How the results depend on the processing

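In every setting tried for them, the members' median and its offset to the comparison set stayed negative. The run was chosen as lower in these same 6 libraries, so this sign is no separate evidence. The median was -0.39 with a pseudocount of 0.1 and -0.090 with 1, where the comparison median was -0.087 and -0.019 and the offset -0.30 and -0.071; larger pseudocounts shrink these low values by construction. With all entries above 0 the 3 values were -0.49, -0.089 and -0.40, and with at least 0.2 FPKM -0.53, -0.019 and -0.52. TMM scaling gave a median of -0.49 and a comparison median of -0.015, quantile scaling -0.46 and -0.022 (offset -0.44), and equal sums -0.68 and -0.21. TMM scaling moved the median of all entries from -0.12 to -0.0015, and relative to all entries the members stood at -0.49, -0.48, -0.47 and -0.49 as deposited and under TMM, quantile and equal-sum scaling. Without 1 library the median ran from -0.61 to -0.59, the comparison median from -0.19 to -0.10 and the offset from -0.51 to -0.42. The offset was -0.50 against other chromosomes, and, with comparison sets added after seeing the data, -0.42 against chromosome 9 from 65 Mb and -0.26 against the part after the run. Genes with spliced isoforms listed (added) gave a comparison median of -0.15, and only those alone at their locus (added) -0.64 and -0.17.

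The count of lower members was 394 of 485 above 0, 115 of 132 at 0.2 FPKM or more and 104 of 109 alone at their locus with spliced isoforms. Members below EV in all libraries numbered 93 at 0.2 FPKM and 86 alone at their locus (24.8% and 31.2% of all entries in those settings), where 63 and 70 were called lower (9.93% and 14.8% of all entries). Lower calls ran from 47 to 98 without 1 library (2.38% to 4.77% of all entries), and higher calls stayed at 1. Of all 12798 entries, 128 to 169 were then called higher. Higher calls were 2 at 0.2 FPKM, under TMM or quantile scaling, among entries above 0 in all libraries, with 1 entry per locus and among genes with spliced isoforms. Beside them, 300 of all 6052 entries were called higher at 0.2 FPKM, and 608 and 432 of 12798 under TMM and quantile scaling. The other 3 settings called 417 of 11349, 315 of 9023 and 402 of 11225 entries higher, in the order above. Over all entries 1643 were called, 23.3% of them higher, and this share was 45.6% under TMM, 39.4% under quantile scaling and 12.8% with equal sums. With the replicate block, limma called 0 members lower and 0 higher, and 3 of all entries. The labels do not say whether the numbers pair the libraries. Deviations of same-numbered libraries correlated at 0.0027 to 0.02, and those of other pairs at -0.045 to 0.039. Not every library correlated best with its own number, so these values showed no pairing and cannot exclude one. Of 39 named entries, CKS2, FAM220CP, PKN3, RPL12 and TMSB4XP4 changed sign in some setting. Depth limits members under 100 fragments, whose differences scatter most.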

Other observations

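Outside the run, the lowest windows of 5 Mb with at least 10 entries began at 55 Mb on chromosome 1 (median -0.54 over 14 entries), at 15 Mb on chromosome 10 (-0.54) and at 30 Mb on chromosome 12 (-0.50). The fourth as low as the run was chromosome 9 from 65 to 70 Mb (-0.49 over 12 entries), which is part of the comparison set. Entries of chromosome 9 from 65 Mb to the start of the run (41) had a median of -0.19, and those up to 50 Mb (164) one of -0.11.

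Among noncoding members, the 30 antisense, intronic, overlapping and intergenic RNAs had a median of -0.62, with 23 lower in OVER43 (76.7%), against 0.17 for 27 such entries before the run. Over all 2126 such entries the median was -0.099, and 56.3% were lower. Every OVER43 value lay below every EV value in 11 of the 30 (36.7%), against 18.7% of all such entries. Both counts include members that reached the level minimum through EV alone, among them GSN-AS1, LOC102723566 and LOC100132077. For such members a lower OVER43 mean FPKM was built in. LINC00963, a processed transcript outside these 30, read 0.308, 0.294 and 0.307 FPKM in OVER43 and 0.609, 0.577 and 0.542 FPKM in EV, chosen here after its values were seen. Many of these lie within or beside a coding gene, and without strand their reads cannot be told apart from that gene's.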
